A study of Homo sapiens with 6 samples.

Results

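A set of 10 genes that move amino acids or make asparagine was followed in HuCCT1, a human cholangiocarcinoma (bile duct cancer) cell line: the transporter genes SLC38A5, SLC38A1, SLC38A2, SLC1A5, SLC1A4, SLC7A5, SLC3A2, SLC6A14 and SLC7A1, and the asparagine synthetase gene ASNS. They are 10 of the 26485 rows of the deposited table of read counts, matched by gene symbol, and each symbol was found on 1 row. They were selected on measured values, since the list was drawn up with the differences between the 2 clones already known, SLC38A5 being among the larger falls. Their own differences are therefore given as a description and without p-values.

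The libraries fall into 2 groups of 3. One group is clone 22, labelled AQP1 KO, in which CRISPR/Cas9 was directed at AQP1, the gene of the water channel aquaporin-1 (libraries a, b and c). The other is clone 1, a CRISPR clone labelled WT (libraries a, b and c). Both were grown in DMEM-F12 with fetal bovine serum, L-glutamine and antibiotics, and polyadenylated RNA was sequenced from stranded libraries. Each genotype is 1 clone, so genotype and clone cannot be told apart, and the labels do not say that the 3 libraries of a clone are separate cultures, so the spread between them may be technical.

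Cells take up amino acids through carriers of several families. Carriers of the SLC38 family take up glutamine and small neutral amino acids together with sodium, and SLC38A5 can also release glutamine. SLC1A5 and SLC1A4 exchange neutral amino acids across the membrane. SLC7A5 exchanges intracellular glutamine for leucine and other large neutral amino acids, and reaches the cell surface only when bound to the heavy chain SLC3A2. ASNS makes asparagine from aspartate, with glutamine as the nitrogen donor. When amino acids run short, the kinase GCN2 phosphorylates eIF2, translation of the transcription factor ATF4 rises, and ATF4 activates ASNS and several of these transporter genes. MYC is another known activator of glutamine and leucine carriers.

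The libraries held 36925338 to 41724447 counts. AQP1 had 10, 7 and 7 counts in knockout libraries a, b and c, against 2, 8 and 10 in WT libraries a, b and c (log2 fold change 0.27, SE 0.63, edgeR quasi-likelihood test, adjusted p = 0.715). AQP1 is near the detection floor in both clones, and its counts give no check of which clone was edited. Of 8 cholangiocyte markers, 8 averaged at least 1 CPM (counts scaled to a library total of 1000000) in the knockout clone and 7 in the WT clone, with a summed level of 1852 to 1883 CPM per knockout library and 3214 to 3288 CPM per WT library. Markers of other cell types were lower in sum. Hepatocyte genes summed to 84.1 to 91.4 CPM in knockout and 52.1 to 55.8 CPM in WT libraries, with APOB, TTR and CYP3A4 at 0 in all. Leukocyte genes summed to 204.5 to 211 and 107 to 113 CPM, with PTPRC and NKG7 at 0 in all, and fibroblast genes to 37.6 to 40.03 and 17.3 to 19.0 CPM. Endothelial genes summed to 2.15 to 3.06 and 2.18 to 2.64 CPM. The part of these genes in the results below was not tested.

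Of the 10 genes, 9 entered the fit across all genes, and SLC6A14 was too low. Of those 9, 5 were higher and 4 lower in the knockout clone at an adjusted p under 0.05. The clones differ so widely that 74.4% of the 14405 tested genes passed that threshold, 37.1% higher and 37.2% lower. Among members, 4 passed and differed by at least 2-fold: SLC1A4 and SLC38A2 were higher, SLC38A5 and SLC7A5 were lower. Among all tested genes 13.7% were higher and 9.05% lower by that rule. CPM values of the groups did not overlap for any of the 9, and they did not overlap for 77.3% of all tested genes either. The median log2 fold change, knockout over WT, was 0.13 over the 9 and 0.01 over all tested genes.

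**Figure D1:**
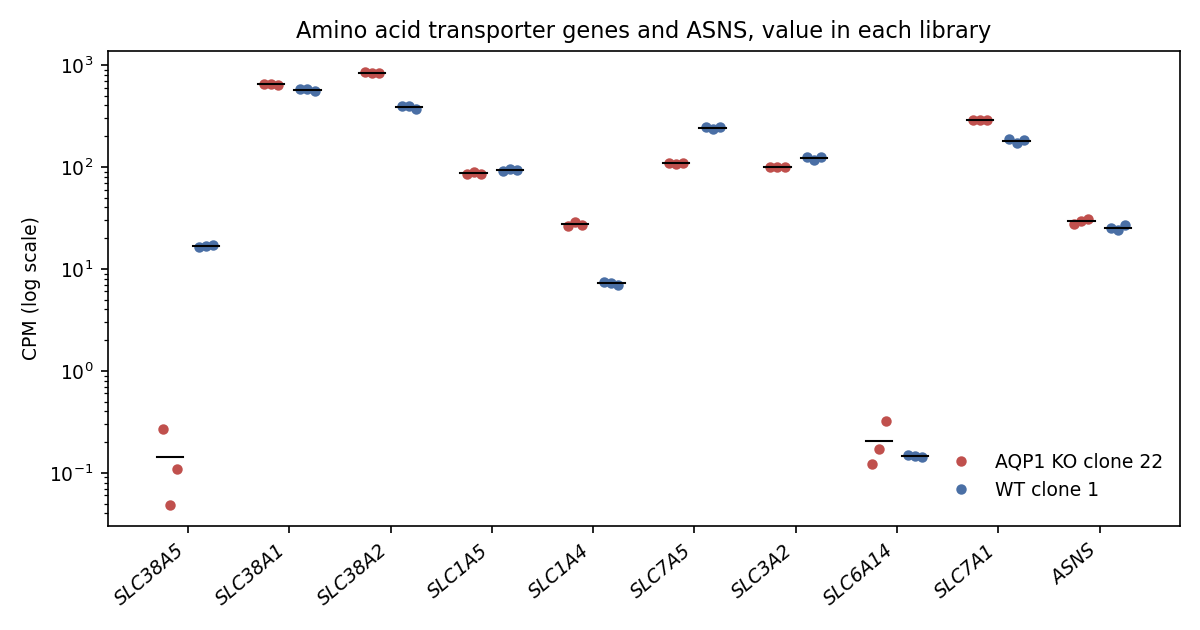
CPM of each gene in each library on a log scale, AQP1 KO clone 22 in red and WT clone 1 in blue; black bars are means of 3 libraries. SLC38A5 spans from 0.0489 to 0.269 CPM in the knockout clone and from 16.5 to 17.0 CPM in the WT clone, whereas SLC6A14 overlaps between the clones.

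The glutamine carriers of the SLC38 family did not move together. SLC38A5 had 11, 2 and 4 counts in knockout libraries a, b and c, against 668, 695 and 708 counts in WT libraries a, b and c. In CPM these are 0.269, 0.0489 and 0.108 in the knockout clone, against 16.5, 16.8 and 17.0 in the WT clone. The transcript was thus near the detection floor in every knockout library, where 3 counts equal 0.0733 to 0.0812 CPM, and well above it in every WT library. The log2 fold change was -6.89 (SE 0.24). Summed over libraries, the WT level was 117 times the knockout level, with an exact 95% interval of 72.9 to 201 that covers counting error only. SLC38A5 passed the low-count filter through the WT libraries alone, so a difference in this direction was built into its being tested. Knockout library a holds 11 of its 17 knockout counts, and without that library the log2 fold change was -7.75.

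SLC38A2, a sodium-coupled importer that cells raise when amino acids are scarce, was the member with the largest gain in CPM. It had 845, 830 and 839.9 CPM in knockout libraries a, b and c, against 397, 392 and 373 CPM in WT libraries a, b and c. All 3 knockout libraries lay above all 3 WT libraries, at 2.08-fold the WT level after normalization (log2 fold change 1.06, SE 0.03). SLC38A1, its close relative with the same kind of transport, had 656, 657 and 641 CPM in knockout libraries a, b and c, against 584, 575 and 561 CPM in WT libraries a, b and c. The groups were separate but close, with a log2 fold change of 0.13 (SE 0.03). In the knockout clone SLC38A2 was 1.95 ± 0.0352 times SLC38A1 per kilobase of merged exons (SD, n = 3 libraries). In the WT clone it was 1.02 ± 0.0136 times SLC38A1 (SD, n = 3 libraries). The ratio depends on the length used, as given with the levels below.

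The 2 neutral amino acid exchangers of the SLC1 family also showed 1 large and 1 small difference, but in opposite directions. SLC1A4, which carries serine, alanine, cysteine and threonine, had 26.1, 28.9 and 26.9 CPM in knockout libraries a, b and c, against 7.42, 7.21 and 7.02 CPM in WT libraries a, b and c. That is 3.64-fold, the largest rise of the 9 genes (log2 fold change 1.87, SE 0.07). SLC1A5, the main glutamine exchanger of many tumour cells, had 84.8, 90.1 and 85.1 CPM in knockout libraries a, b and c, against 90.5, 95.7 and 93.8 CPM in WT libraries a, b and c. The highest knockout library and the lowest WT library lay within 1 CPM of each other, and the log2 fold change was -0.16 (SE 0.03). Per kilobase of exon, SLC1A5 stood at 6.61 ± 0.135 times SLC1A4 in the knockout clone and at 26.95 ± 1.37 times in the WT clone.

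Both chains of the leucine exchanger were lower in the knockout clone, by unequal amounts. The light chain gene SLC7A5 had 110, 107 and 108 CPM in knockout libraries a, b and c, against 246, 237 and 245 CPM in WT libraries a, b and c. Knockout libraries were below WT libraries throughout, with a log2 fold change of -1.22 (SE 0.03). The heavy chain gene SLC3A2 had 101, 99.1 and 99.9 CPM in knockout libraries a, b and c, against 125, 118 and 125 CPM in WT libraries a, b and c, again with no overlap (log2 fold change -0.35, SE 0.03). The ratio of light to heavy chain per kilobase of merged exons was 1.18 ± 0.00904 in the knockout clone and 2.16 ± 0.0328 in the WT clone. Which chain is the higher depends on the length used. Per kilobase of the longest transcript, SLC7A5 was below SLC3A2 in both clones, at 23.8 against 45.0 CPM in knockout and 53.5 against 55.3 CPM in WT. Reads of SLC7A5 could be shared with its partial copies SLC7A5P1, with 13, 9 and 8 counts in knockout and 35, 16 and 36 counts in WT libraries, and SLC7A5P2, with 42, 45 and 38 counts in knockout and 62, 52 and 60 counts in WT libraries. These are few beside the 3988 to 4492 counts of SLC7A5 in knockout libraries and 9790 to 10216 in WT libraries. SLC7A5 also overlaps the noncoding RNA gene SLC7A5-AS1, whose part in these counts is unknown, since the use of strand in counting is not given.

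SLC7A1, the main importer of arginine and lysine, had 291, 288 and 285 CPM in knockout libraries a, b and c, against 188, 172 and 183 CPM in WT libraries a, b and c. All knockout libraries exceeded all WT libraries, with a log2 fold change of 0.62 (SE 0.03). SLC6A14, a concentrating carrier of neutral and basic amino acids, was barely detected in either clone. It had 5, 7 and 12 counts in knockout libraries a, b and c, against 6 in each of the 3 WT libraries. The ratio of summed counts scaled to library totals, knockout over WT, was 1.39 with an exact 95% counting interval of 0.723 to 2.72, so no difference was detectable at this depth.

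ASNS had 27.3, 29.6 and 31.1 CPM in knockout libraries a, b and c, against 25.0, 23.9 and 26.6 CPM in WT libraries a, b and c. The lowest knockout library lay just above the highest WT library, and the log2 fold change was 0.16 (SE 0.06). This was the least certain difference of the 9. ASNS no longer passed the threshold without WT library a, WT library b, knockout library b or knockout library c, when 4 members were higher in place of 5. Its log2 fold change ranged from 0.12 to 0.22 over 13 alternatives. ASNS overlaps the noncoding RNA gene CZ1P-ASNS, whose part in these counts is unknown.

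Levels can be compared between genes only per length, here as CPM per kilobase of merged GENCODE 29 exons. In the knockout clone SLC38A2 came first at 127 ± 1.15, followed by SLC38A1 at 65.0 ± 0.898, SLC7A1 at 37.5 ± 0.386, SLC1A5 at 26.0 ± 0.895, SLC7A5 at 22.8 ± 0.371 and SLC3A2 at 19.3 ± 0.167 (SD, n = 3). ASNS stood at 6.59 ± 0.429 and SLC1A4 at 3.94 ± 0.204, while SLC6A14 at 0.0456 ± 0.0234 and SLC38A5 at 0.0354 ± 0.0284 overlapped at the bottom. In the WT clone SLC38A2 at 58.7 ± 1.90 and SLC38A1 at 57.2 ± 1.17 overlapped at the top, with SLC7A5 next at 51.1 ± 1.03 and SLC1A5 at 28.0 ± 0.803. SLC3A2 at 23.7 ± 0.830 and SLC7A1 at 23.5 ± 1.07 overlapped. ASNS at 5.66 ± 0.309, SLC38A5 at 4.17 ± 0.0625, SLC1A4 at 1.04 ± 0.0291 and SLC6A14 at 0.0322 ± 0.000475 made up the lower end. With the longest transcript as the length, SLC3A2 moved to the third place in both clones, at 45.0 in knockout and 55.3 in WT. The reason is that its merged exons span 5178 bases and its longest transcript 2222. By the longest transcript SLC38A2 stood at 79.3 and SLC38A1 at 71.1 in the WT clone. In the knockout clone SLC38A5 then came above SLC6A14, at 0.0535 and 0.0456.

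Added up per kilobase, the 9 transporter genes reached 302 ± 1.74 in the knockout clone and 248 ± 3.29 in the WT clone. SLC38A2 alone made up 42.1% ± 0.376 of that sum in the knockout clone and 23.7% ± 0.594 in the WT clone. SLC7A5 made up 7.56% ± 0.104 in the knockout clone and 20.65% ± 0.355 in the WT clone. SLC38A5 fell to 0.0117% ± 0.00935 of the sum in knockout libraries, against 1.69% ± 0.0470 in WT libraries.

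**Figure D2:**
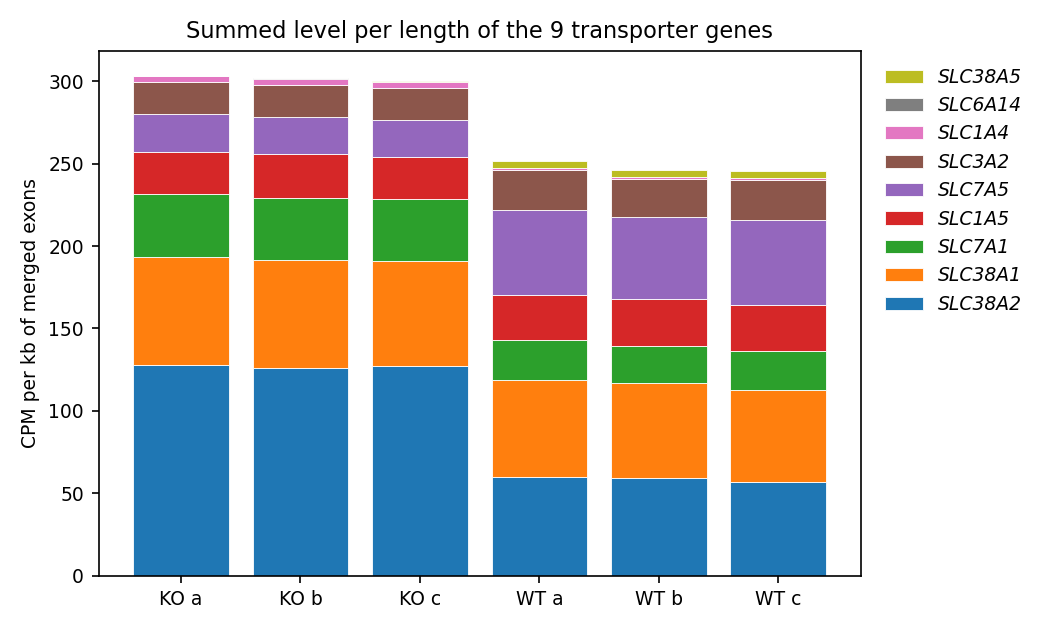
Level per length (CPM per kb of merged exons) of the 9 transporter genes, stacked, in the 3 AQP1 KO libraries and the 3 WT libraries. The knockout columns total 299.9 to 303 and the WT columns 245.5 to 251, and the SLC38A2 block is 126 to 128 in knockout and 56.6 to 60.1 in WT columns.

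The promoter windows of these genes, 250 bases before to 50 bases after each annotated start (RefSeq, GRCh38.p14), were searched on both strands for TGATGNAA, the core of the C/EBP-ATF response element to which ATF4 binds, for CACGTG, the E-box bound by MYC and MAX, and for TGACGTCA, the cyclic AMP response element. No match of one motif overlapped a match of another. TGATGNAA was in 6 of the 17 windows of the 10 genes and in 3.62% of all 35116 promoter windows. Counted by gene, 6 of 10 members had it in at least 1 window, against 4.46% of all 27305 genes and 7.03% of genes with 2 or more windows, of which there are 5 among the members. CACGTG was in 3 of 17 member windows and in 7.26% of all windows. By gene, 3 of 10 members had CACGTG, against 8.77% of all genes and 15.2% of genes with 2 or more windows. TGACGTCA was in no member window and in 1.85% of all windows. ATF4 control of ASNS and of other members is textbook knowledge, and the count is a description only.

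The matches to TGATGNAA are shown because they carry the core of the element through which amino acid shortage is known to act on ASNS. The variable base N differs from that of ASNS in SLC1A5, SLC1A4 and SLC3A2. In SLC7A1 and SLC3A2 the match begins after the start. In SLC38A1, SLC1A5, SLC1A4 and SLC3A2 it lies in the most downstream of the gene's windows, and in ASNS in the more upstream. Each match is written 5′ to 3′ on the strand of the gene with the match in capitals, and where the motif lies on the opposite strand its reverse complement is capitalized.
ASNS (chr7:97872449-97872496, minus strand, match starting 68 bases before the start): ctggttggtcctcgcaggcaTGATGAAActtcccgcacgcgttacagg
SLC38A1 (chr12:46266493-46266540, minus strand): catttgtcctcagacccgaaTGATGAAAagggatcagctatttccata
SLC7A1 (chr13:29595654-29595701, minus strand): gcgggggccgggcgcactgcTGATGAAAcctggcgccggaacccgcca
SLC1A5 (chr19:46784884-46784931, minus strand): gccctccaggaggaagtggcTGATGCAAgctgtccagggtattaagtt
SLC1A4 (chr2:64989372-64989419, plus strand, motif on the opposite strand): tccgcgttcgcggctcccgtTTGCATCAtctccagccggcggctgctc
SLC3A2 (chr11:62881716-62881748, plus strand, motif on the opposite strand): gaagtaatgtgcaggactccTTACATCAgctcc

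The matches to CACGTG are shown for the 3 members that have one. Their log2 fold changes were -6.89 for SLC38A5, -1.22 for SLC7A5 and -0.16 for SLC1A5. SLC3A2, without the motif in these windows, was also lower, at -0.35, and the 5 members called higher had no match. Any part of MYC in these differences was not tested.
SLC38A5 (chrX:48470441-48470486, minus strand): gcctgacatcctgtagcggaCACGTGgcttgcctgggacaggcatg
SLC7A5 (chr16:87869612-87869657, minus strand): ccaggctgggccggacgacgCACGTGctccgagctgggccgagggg
SLC1A5 (chr19:46787318-46787363, minus strand): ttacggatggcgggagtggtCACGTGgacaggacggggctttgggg

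Members with the TGATGNAA core spanned both directions. Their log2 fold changes were 1.87 for SLC1A4, 0.62 for SLC7A1, 0.16 for ASNS, 0.13 for SLC38A1, -0.16 for SLC1A5 and -0.35 for SLC3A2. Those without it in these windows included SLC38A2 at 1.06 and SLC7A5 at -1.22, as well as SLC38A5 at -6.89. No match says only that these letters are not in the window searched.

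Position on the chromosome was not used to pick the genes. Each member was set beside the tested genes that start within 1 Mb of it. In this comparison the start of a gene is its lowest coordinate, whatever its strand, and before and after follow the coordinates. ASNS (chr7:97851677-97928441) was above all 6 of its neighbours, whose median log2 fold change was -1.17. The nearest on either side were SDHAF3, an assembly factor of succinate dehydrogenase, at 5.32 ± 0.447 CPM in knockout and 15.6 ± 0.455 CPM in WT libraries, and the kinase gene LMTK2, at 42.4 ± 0.325 and 77.5 ± 2.43 CPM. SLC1A4 (chr2:64988479-65023865) was likewise above all 8 of its neighbours, with a median of -0.35. SERTAD2 before it fell to 59.4 ± 2.53 CPM in knockout libraries, against 118 ± 1.51 CPM in WT libraries, and CEP68 after it, a centrosomal gene, rose to 28.2 ± 1.88 CPM, against 14.0 ± 0.101 CPM in WT.

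Other members stood below their surroundings. SLC7A5 (chr16:87830023-87869507) was below all 19 of its neighbours, whose median was -0.02. The nearest were KLHDC4 at 19.6 ± 1.94 CPM in knockout and 18.8 ± 0.226 CPM in WT libraries, and BANP at 12.2 ± 0.217 and 13.9 ± 0.679 CPM. SLC38A5 (chrX:48458544-48470260) was below 35 of 36 neighbours, with a median of 0.13. FTSJ1, an RNA methyltransferase gene, rose to 153 ± 7.05 CPM in knockout libraries, against 119 ± 3.995 CPM in WT libraries. Its lowest coordinate is 17.7 kb from that of SLC38A5, which is on the minus strand, so the distance from the transcription start of SLC38A5 is shorter. The nearest tested gene on the other side, SSX1, had 0.0335 ± 0.0135 CPM in knockout and 0.839 ± 0.323 CPM in WT libraries, and SSX6, the only neighbour below SLC38A5 and named for that after its value was seen, had 0.0163 ± 0.0283 and 4.002 ± 0.670 CPM. SSX genes are cancer-testis genes with near-identical copies, so their counts are uncertain. Like SLC38A5, SSX1 and SSX6 passed the low-count filter through the WT libraries alone.

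SLC38A1 and SLC38A2 lie on chromosome 12 (chr12:46183063-46269043 and chr12:46358188-46372773) and are neighbours of each other. Their lowest coordinates are 175 kb apart. All 8 neighbours of SLC38A1 were higher in the knockout clone, with a median of 0.83, and SLC38A1 was below all of them. SLC38A2 was above 5 of its 7 neighbours (median 0.72) and below AMIGO2 and SLC38A4. SLC38A4, the third carrier of this cluster, rose to 13.9 ± 1.21 CPM in knockout libraries, against 4.56 ± 0.651 CPM in WT libraries (log2 fold change 1.55), and SCAF11 on the other side to 247 ± 6.65 CPM, against 182 ± 3.08 CPM (log2 fold change 0.39). SLC7A1 (chr13:29509414-29595688) was below all 5 of its neighbours (median 1.12), of which SLC46A3 before it and UBL3 after it had log2 fold changes of 3.65 and 1.12.

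SLC3A2 (chr11:62856109-62888860), at -0.35, was close to its neighbours' median of -0.39, with 28 of 51 neighbours below it. The nearest tested gene before it was the small nucleolar RNA gene SNORD25 at -1.66. The nearest after it, HRASLS5, starts 605.3 kb away and had 0, 4 and 0 counts in knockout libraries a, b and c, against 21, 14 and 21 counts in WT libraries a, b and c. Its log2 fold change was -3.69, and -7.22 without knockout library b, which holds all its knockout counts, so that its size is poorly determined. HRASLS5 passed the low-count filter through the WT libraries alone. SLC1A5 (chr19:46774883-46788594), at -0.16, had 26 of 30 neighbours above it and a median of 0.13. AP2S1, the nearest tested gene after it, was at 0.17. SLC6A14 (chrX:116436606-116461458) had 2 tested neighbours, with a median of -1.16.

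**Figure D3:**
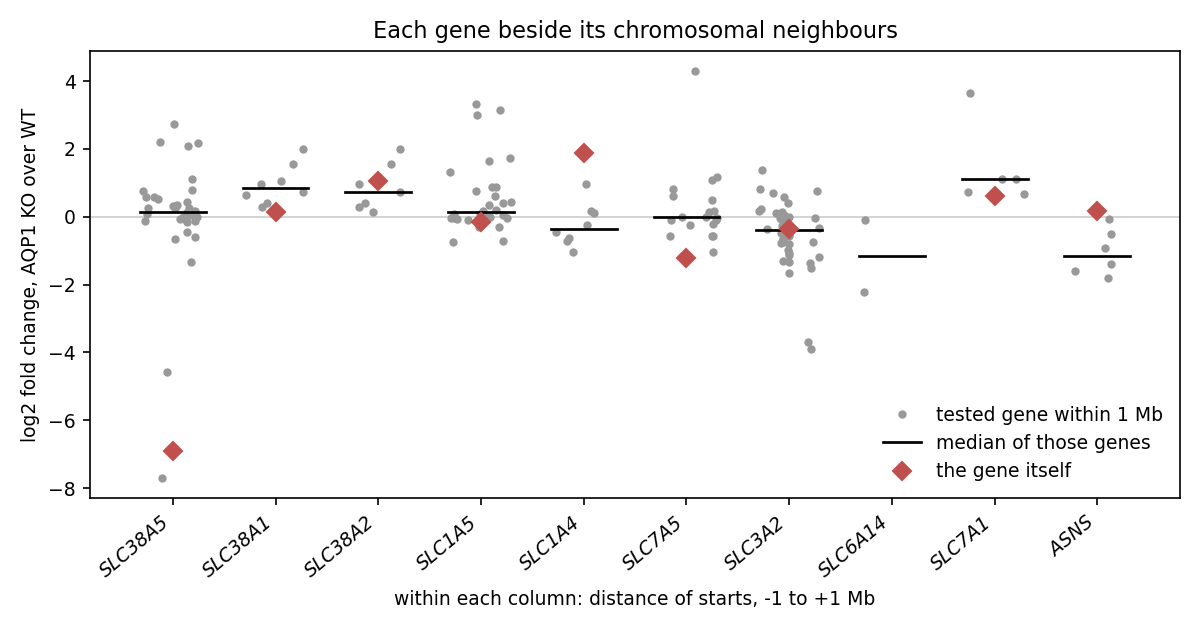
Log2 fold change, AQP1 KO over WT, of each member (red diamond) and of the tested genes that start within 1 Mb (grey points, placed by distance of their starts), with the neighbours' median as a black line. Starts are lowest coordinates, whatever the strand. ASNS and SLC1A4 lie above all their neighbours, SLC7A5, SLC38A1 and SLC7A1 below all of theirs, and SLC6A14 has no diamond because it was not tested.

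Of 40 other amino acid transporter genes, 21 were tested: 10 rose, 6 fell and 5 did not pass. Their median log2 fold change was 0.09 beside 0.01 over all tested genes. Among all tested genes 37.1% rose and 37.2% fell, the shares to set beside the counts of this list and those below. SLC38A4 was the second largest rise among these transporters. The largest was SLC7A8, another light chain for SLC3A2, at only 0.621 ± 0.349 CPM in knockout and 0.145 ± 0.126 CPM in WT libraries. Its call was lost without knockout library b (edgeR quasi-likelihood test, adjusted p = 0.0740, with 0.00321 to 0.0740 over its alternatives). SLC7A8 and SLC3A1, which also rose, passed the low-count filter through the knockout libraries alone. The largest falls were in SLC6A20, an importer of proline, at 0.998 ± 0.139 CPM in knockout and 10.4 ± 1.04 CPM in WT libraries (log2 fold change -3.43, SE 0.16), and in SLC7A2, an importer of basic amino acids like SLC7A1, at 24.5 ± 0.0865 and 55.6 ± 1.16 CPM (log2 fold change -1.23, SE 0.05). Among light chains that share SLC3A2, named here for that reason and outside the rule, the cystine exchanger SLC7A11 rose to 106 ± 1.39 CPM in knockout libraries, against 41.6 ± 1.68 CPM in WT libraries. SLC7A6 fell to 73.6 ± 2.65 CPM, against 98.1 ± 5.48 CPM. SLC7A7 did not pass, and SLC7A10 had no counts.

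Of 19 tested enzymes that make or break down amino acids, 12 fell, 6 rose and 1 did not pass, with a median of -0.37. The largest fall was that of GLUL, the glutamine synthetase gene. It had 0.392, 0.489 and 0.271 CPM in knockout libraries a, b and c, against 32.4, 34.0 and 33.1 CPM in WT libraries a, b and c. The knockout libraries held 16, 20 and 10 counts, against 1312, 1404 and 1379 counts in the WT libraries (log2 fold change -6.46, SE 0.12, edgeR quasi-likelihood test, adjusted p = 1.69e-14). GLS2, a glutaminase gene, fell to 0.659 ± 0.172 CPM in knockout libraries, against 2.07 ± 0.460 CPM in WT libraries. Rises were led by GPT, an alanine transaminase gene at 0.540 ± 0.251 and 0.145 ± 0.126 CPM that passed the filter through knockout libraries alone, and by ASS1, the argininosuccinate synthase gene, at 9.45 ± 0.829 and 4.33 ± 0.322 CPM. The call of GPT was lost without WT library a, WT library c or knockout library c (edgeR, adjusted p = 0.0608, 0.0631 and 0.0796, with 0.00380 to 0.0796 over its alternatives). For asparagine itself, ASRGL1, an asparaginase gene named outside the rule, was at 1.42 ± 0.180 CPM in knockout and 0.833 ± 0.160 CPM in WT libraries (edgeR, adjusted p = 0.036), and ASPG had no counts. Aspartate transaminase genes GOT1 and GOT2, named with them, fell by 0.66 and 0.44 on the log2 scale.

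Of 23 tested genes that ATF4 is known to activate, members left out, 17 rose, 4 fell and 2 did not pass, with a median of 0.54. STC2, a secreted glycoprotein gene, rose to 3.998 ± 0.895 CPM in knockout libraries, against 0.549 ± 0.203 CPM in WT libraries. PHGDH, which starts serine synthesis, rose to 78.4 ± 2.12 CPM, against 11.8 ± 0.774 CPM (log2 fold change 2.68, SE 0.06, edgeR quasi-likelihood test, adjusted p = 1.65e-13). PSAT1, the next enzyme of that pathway, had too few counts in both clones to be tested. The falls were led by TRIB3, a pseudokinase that feeds back on ATF4, at 37.7 ± 1.73 CPM in knockout and 72.9 ± 1.28 CPM in WT libraries, and by the stress factor ATF3, at 4.52 ± 0.276 and 7.80 ± 0.821 CPM. DDIT4 and PPP1R15A were the other two that fell. SLC7A11 is on this list and on that of other transporters.

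ATF4 itself rose slightly, to 314 ± 3.97 CPM in knockout libraries, against 285 ± 5.98 CPM in WT libraries (log2 fold change 0.09, SE 0.02, edgeR quasi-likelihood test, adjusted p = 0.00609, 0.000159 to 0.0405 over its alternatives). ATF4 is controlled mainly through its translation, which these counts do not measure. Of the 17 genes of this list, which also holds the eIF2 kinases and the subunits of eIF2 and eIF2B, 6 rose, 7 fell and 4 did not pass, with a median of -0.07. Only 3 rose without WT library c. CEBPG, a partner of ATF4 on DNA, rose to 48.1 ± 2.42 CPM in knockout libraries, against 23.7 ± 1.24 CPM in WT libraries. The eIF2 subunit gene EIF2S3 rose to 318 ± 6.26 CPM, against 225 ± 4.41 CPM, with counts that are uncertain because of a near-identical retrogene. EIF2B5, the catalytic subunit of eIF2B, fell to 42.1 ± 2.45 CPM, against 88.8 ± 3.21 CPM, and PPP1R15B, which directs eIF2 dephosphorylation, to 63.2 ± 4.08 CPM, against 117 ± 1.79 CPM.

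Cytosolic aminoacyl-tRNA synthetase genes, which load amino acids onto tRNA, were all detected. Of 20, 13 rose and 7 fell, with a median of 0.23. HARS, for histidine, rose to 74.3 ± 0.733 CPM in knockout libraries, against 39.6 ± 1.16 CPM in WT libraries, and LARS, for leucine, to 192 ± 1.33 CPM, against 119 ± 2.07 CPM. VARS, for valine, fell to 10.0 ± 1.53 CPM, against 20.5 ± 1.86 CPM, and FARSB, for phenylalanine, to 104 ± 1.99 CPM, against 166 ± 3.12 CPM. NARS, for asparagine and named for its tie to ASNS, fell to 189 ± 3.64 CPM, against 234 ± 3.88 CPM (log2 fold change -0.36).

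Of 39 tested genes of mTORC1, the growth kinase complex, and of the proteins that report amino acids to it, 18 rose, 12 fell and 9 did not pass, with a median of 0.12. SESN3, of the family of leucine sensors, was at 2.51 ± 0.376 CPM in knockout and 0.137 ± 0.113 CPM in WT libraries, and DEPTOR, an inhibitor of the complex, at 1.10 ± 0.0378 and 0.226 ± 0.0482 CPM. Both passed the low-count filter through the knockout libraries alone. DEPDC5, a subunit of the GATOR1 complex that restrains mTORC1, fell to 11.8 ± 0.299 CPM in knockout libraries, against 20.2 ± 0.264 CPM in WT libraries. CASTOR2 (GATSL2 in the table), a relative of the arginine sensor gene CASTOR1, was at 5.80 ± 0.456 and 9.85 ± 1.44 CPM. CASTOR2 is uncertain because of near-identical copies. CASTOR1 (GATSL3 there), named outside the rule, did not pass (log2 fold change 0.77, edgeR quasi-likelihood test, adjusted p = 0.0543). SLC38A9, the lysosomal arginine sensor of the SLC38 family, counted here and among other transporters and named outside the rule, rose to 29.2 ± 2.61 CPM, against 18.6 ± 1.24 CPM.

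MYC fell to 153 ± 3.62 CPM in knockout libraries, against 201 ± 7.07 CPM in WT libraries (log2 fold change -0.45, SE 0.03, edgeR quasi-likelihood test, adjusted p = 8.92e-09). Of 12 tested genes of the MYC and MAX network, 4 rose, 5 fell and 3 did not pass, with a median of -0.03. MGA rose to 42.8 ± 0.941 CPM, against 3.51 ± 0.381 CPM, and MXD4, a repressor that competes with MYC for MAX, to 32.1 ± 0.366 CPM, against 6.61 ± 0.436 CPM. MLX, another MAX-like partner, fell to 41.2 ± 0.777 CPM, against 95.3 ± 1.89 CPM.

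**Figure D4:**
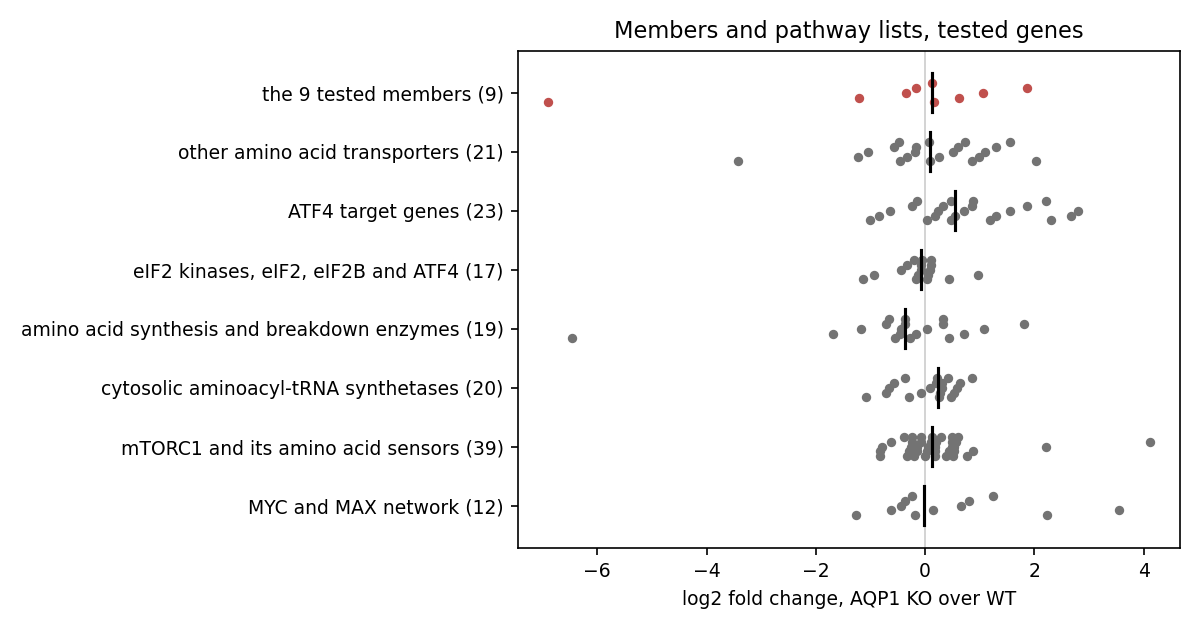
Log2 fold change, AQP1 KO over WT, of the 9 tested members (red) and of the tested genes of 7 pathway lists (grey), with the number tested in brackets and the median as a black line. SLC38A5 at -6.89 and GLUL at -6.46 lie far to the left of the other points, and the ATF4 target list has the highest median of the 7 lists, at 0.54.

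The genes whose profile over the 6 libraries was most like that of SLC38A5 were sought by the smallest root mean square difference of log2 CPM, each gene centred on its own mean. They were the antisense gene MAGI2-AS3 (difference 0.25), the transcription cofactor gene VGLL1 (0.26) and LINC00639 (0.31). VGLL1 had 0.739 ± 0.257 CPM in knockout and 64.7 ± 0.9497 CPM in WT libraries. MAGI2-AS3 and LINC00639, like SLC38A5, passed the low-count filter through the WT libraries alone. MAGI2-AS3 is uncertain, because whether strand was used in counting is unknown. For ASNS they were TRAFD1, SPRY4 and PTAR1, with differences of 0.031 to 0.032 and log2 fold changes of 0.17, 0.17 and 0.16. With 2 groups of libraries this measure follows mainly the size of the difference between the clones.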

How the data were processed

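RNA of 6 libraries was analysed, 3 per clone. The authors deposited 1 table of whole-number read counts per gene symbol, not normalized. The build hg38 and the tools HISAT2, Trimmomatic 0.33, edgeR and FastQC are named, per the submitters' processing notes. How reads were counted, with or without strand, and on which annotation is not given in the sources. Within a clone, pairs of libraries differed by more than sampling noise (chi-square per degree of freedom 4.18 to 7.61), so none was treated as a library deposited again; separate preparations of one culture would also differ in this way.

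For the knockout over WT contrast, edgeR 4.0.16 (R 4.3.3) was run with filterByExpr, TMM factors of 0.98 to 1.02 and its quasi-likelihood F test, without covariates; p-values were adjusted over 14405 genes by Benjamini-Hochberg (BH), threshold 0.05. The other 12080 rows were too low. The filter asks for 0.245 CPM in 3 libraries. Each SE is the log2 fold change over the root of its F value. AQP1 was added back for its own fit. CPM is counts per 1000000 counts of the library. The steps were tested on simulated counts.

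Members and gene lists were chosen with earlier results of these data known. Named genes are the members, in each list the called genes with the 2 most positive and 2 most negative changes, ATF4, MYC, nearest neighbours and most alike genes, and others where said. Coordinates and promoters are RefSeq GRCh38.p14, the same assembly as hg38; 14105 tested genes were placed by symbol. Alternatives were RLE factors, library totals, no filter, 1 CPM in 3 libraries, DESeq2 1.42.0, limma-voom (limma 3.58.1), the letter as a block, each library left out, and a threshold of 0.01. Some genes that these rules name are not reported here.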

Additional observations from a re-analysis of the deposited data

How the results depend on the processing

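Directions of the 9 tested members and the counts of 5 higher and 4 lower held under every alternative, except that 4 were higher at a threshold of 0.01 or without 1 of 4 libraries (range 4 to 5 when a library was left out); the gene lost was ASNS. In the list of eIF2 kinases, eIF2, eIF2B and ATF4, 3 to 6 genes rose when a library was left out, 3 of them without WT library c. Neighbour medians depended on the window. At 0.5 Mb they were 0.67 for SLC38A1, 0.39 for SLC38A2, 0.26 for SLC1A5, -0.066 for SLC1A4, -0.45 for SLC3A2 and -0.92 for ASNS, and at 5 Mb 0.32 for SLC38A1, 0.31 for SLC38A2, -0.024 for SLC1A4, -0.45 for SLC3A2, 0.64 for SLC7A1 and -0.62 for ASNS. That of SLC7A5, near 0, turned to 0.62 at 0.5 Mb and 0.15 at 5 Mb, to 0.035 with library totals, and ranged from -0.045 to 0.0008 with libraries left out. That of SLC6A14 was 0.090 at 5 Mb, and no gene lay within 0.5 Mb. With library totals the medians were 0.18 for SLC1A5 and -0.34 for SLC3A2, and with libraries left out that of SLC38A1 ranged from 0.78 to 0.91. The cause was not tested; windows differ in the genes they hold. Libraries with the same letter did not deviate together (r = 0.0577, -0.0195 and 0.0082), and not every library correlated best with its own letter. With the letter as a replicate block, 5284 genes rose and 5315 fell, and all 9 members kept their calls. In knockout libraries SLC38A5 had 2 to 11 counts and SLC6A14 5 to 12, so counting error limits the precision of both there.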

Other observations

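Another pair of gene groups around glutamine was measured after the results above were known, with no test as groups. Of 9 enzymes that, like ASNS, take nitrogen from glutamine, 5 fell, 2 rose and 2 did not pass (edgeR quasi-likelihood, BH over all genes). GFPT2, which makes a precursor of protein sugars, rose to 23.4 ± 1.51 CPM in knockout libraries, against 1.70 ± 0.132 CPM in WT libraries, while its relative GFPT1 fell to 121 ± 0.782 CPM, against 143 ± 2.79 CPM. CTPS1, for cytidine triphosphate, fell to 156 ± 3.69 CPM, against 233 ± 3.90 CPM.

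Of 12 carriers of amino acids into mitochondria, 11 were tested: 4 rose, 5 fell and 2 did not pass. SLC25A13, an aspartate-glutamate carrier, fell to 39.3 ± 3.09 CPM in knockout libraries, against 65.4 ± 3.23 CPM in WT libraries. SFXN1, a serine carrier, rose to 91.3 ± 1.21 CPM, against 65.0 ± 2.35 CPM.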
